A study of Mus musculus with 8 samples.

Results

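The Obox genes were followed in mouse oocytes at nuclear envelope breakdown (NEBD), the first visible step of meiotic resumption. The family was taken as the genes listed under the symbols Obox1, Obox2, Obox3, Obox5, Obox6, Obox7 and Obox8, and 5 of these 7 symbols have a row among the 25574 genes of the deposited expression table. Obox7 and Obox8 have no row under these symbols. Obox7 was formerly called Gm4745, and the row Gm4745 is described beside the members, although it was added outside the rule and after its values had been seen.

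Oocytes came from CD1 females of 8 weeks and no group carried a mutation or received a drug that the other lacked. Each profile used 200 oocytes that had been cultured after release from IBMX, an inhibitor that holds meiotic arrest, and exposed to cycloheximide, which freezes ribosomes on mRNA. Lysates were spread over a sucrose gradient and its fractions were pooled into a polysomal dataset (P, the polysome region) and a non-polysomal dataset (NP, the region of ribosomal subunits and monosomes), with 4 replicate libraries of each. The topmost fraction went into neither pool, so mRNA in the lightest particles was not measured. The labels do not say whether the replicates came from separate mice. They also do not say whether a P and an NP library of the same number came from the same gradient. The paper describes 4 independent biological replicate profiles, from whose fractions P and NP were pooled, without matching them to library numbers. The main tests leave such pairing out, and the p-values measure the spread between these libraries only. Values are FPKM, fragment numbers divided by transcript length and by the size of the library, so a difference between P and NP concerns the share of each library and not the portion of a transcript found on polysomes. Since each library pools oocytes, fewer oocytes carrying a transcript and less of it per oocyte cannot be told apart.

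Obox stands for oocyte-specific homeobox. The proteins carry a homeodomain, a DNA-binding fold shared by many developmental transcription factors, and the genes form a tandem cluster known from rodents. They are known for expression in the oocyte and the early embryo, and the maternally supplied and early embryonic members together are known to be needed when the mouse embryonic genome is switched on. A maternal transcript that is to act in the embryo can be stored untranslated in the oocyte or be translated already during maturation. P against NP reflects this distinction only in part. The NP pool includes monosomes, and the authors could not exclude that heavy stored particles sediment with polysomes.

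The found members lie side by side on chromosome 7 (GRCm38). Obox2 runs from 15354037 to 15398545 on the plus strand, Obox3 from 15479825 to 15639902 on the minus strand, Obox1 from 15512340 to 15556866 on the plus strand, Obox5 from 15750134 to 15759800 on the plus strand and Obox6 from 15833246 to 15839678 on the minus strand. The stretch from the first start to the last end covers 485.642 kb and holds 0 other rows of the table. Obox1 lies wholly inside the coordinates of Obox3 on the opposite strand, and no source used here says whether counting took account of the strand. Gm4745 lies apart from this stretch at chr7:14659708-14665995 on the plus strand. The annotation of the same build (GENCODE M21) lists 48 further Obox genes, of which 47 are pseudogenes, with 46 on chromosome 7 and 2 on chromosome 17.

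Because the members are near copies, their sequences set how far the rows can be told apart. Part of the homeobox of Obox1, Obox2, Obox5, Obox3 and Obox7 is shown, as a stretch of the spliced coding sequence in GENCODE M21. Bases run 5′ to 3′, with a capital at each base that differs from Obox1. The coordinates run from the first to the last base of the stretch and include an intron.
Obox1, chr7:15555570-15556165 (plus strand): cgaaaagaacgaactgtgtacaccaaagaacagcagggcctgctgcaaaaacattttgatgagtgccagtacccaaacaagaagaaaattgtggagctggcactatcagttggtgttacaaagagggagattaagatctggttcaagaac
Obox2, chr7:15397253-15397848 (plus strand): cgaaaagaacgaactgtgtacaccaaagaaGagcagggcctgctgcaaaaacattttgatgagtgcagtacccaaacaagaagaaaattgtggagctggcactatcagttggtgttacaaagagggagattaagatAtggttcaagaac
Obox5, chr7:15757944-15758553 (plus strand): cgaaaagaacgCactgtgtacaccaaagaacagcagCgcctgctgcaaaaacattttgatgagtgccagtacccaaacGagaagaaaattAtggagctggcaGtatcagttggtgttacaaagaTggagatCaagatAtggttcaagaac
Obox3, chr7:15626311-15626930 (minus strand): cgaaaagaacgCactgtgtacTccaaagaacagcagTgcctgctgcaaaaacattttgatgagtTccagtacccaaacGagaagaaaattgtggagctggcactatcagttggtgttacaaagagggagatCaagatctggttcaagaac
Obox7, chr7:14664445-14665282 (plus strand): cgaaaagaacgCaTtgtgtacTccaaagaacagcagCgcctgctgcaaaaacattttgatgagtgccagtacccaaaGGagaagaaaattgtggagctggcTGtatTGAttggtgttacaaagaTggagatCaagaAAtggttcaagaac

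Within this stretch Obox2 differed from Obox1 by 2 substituted bases and 1 missing base, which leaves 149 bases where the other genes have 150. Obox3 differed by 6 substitutions, Obox5 by 8 and Obox7 by 15, whereas the more distant Obox6 and Obox8 differed by 41 and 62. Over the aligned coding sequence Obox1 and Obox2 were identical at 446 of 453 bases (98.5%), Obox1 and Obox5 at 95.6%, Obox1 and Obox3 at 94.0%, and Obox5 and Obox7 at 96.0%. Of all stretches of 150 bases (the read length) in the Obox1 transcript, 31.4% also occurred in another annotated gene, and the corresponding share was 32.7% for Obox2. These stretches were shared by Obox1 and Obox2 with each other. For Obox3 the share was 8.47%, all with Obox pseudogenes, and none of the stretches of Obox5, Obox6, Obox7 or Obox8 had a copy at this length. At 50 bases the share rose to 59.3% for Obox1, 63.0% for Obox2, 32.7% for Obox3, 20.2% for Obox7 and 13.0% for Obox5. No source used here says how reads that map to several places were counted, so the separate levels of Obox1 and Obox2 are uncertain, and the sum over the members is given as well.

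**Figure D1:**
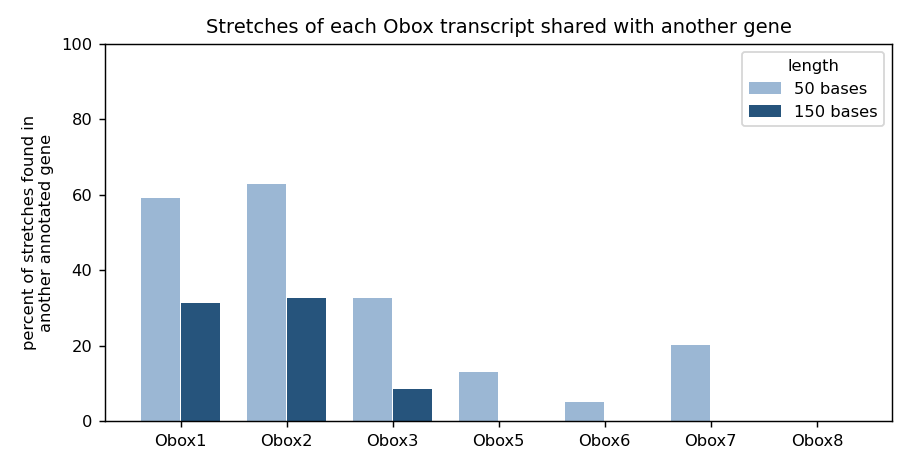
Bars show, for each of the 7 Obox genes, the percent of all stretches of 50 bases (light) or 150 bases (dark) of the transcript with its longest coding sequence that occur exactly in the transcripts of another annotated gene, on either strand. At 150 bases Obox1 (31.4%) and Obox2 (32.7%) stand highest, Obox3 reaches 8.47% and Obox5 has no such stretch.

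The regions upstream are similarly close. RefSeq (GRCm38.p6) gives a promoter window around the start of Obox1, Obox2, Obox3, Obox5 and Obox7. The windows of the abundant Obox1, Obox2 and Obox5 are printed with that of the scarce Obox3, and the capitals mark the longest run that the first 3 have in common. The starts are those of RefSeq, and the rows of the deposited table begin farther upstream for Obox1 and Obox2.
Obox1, chr7:15547007-15547306 (plus strand): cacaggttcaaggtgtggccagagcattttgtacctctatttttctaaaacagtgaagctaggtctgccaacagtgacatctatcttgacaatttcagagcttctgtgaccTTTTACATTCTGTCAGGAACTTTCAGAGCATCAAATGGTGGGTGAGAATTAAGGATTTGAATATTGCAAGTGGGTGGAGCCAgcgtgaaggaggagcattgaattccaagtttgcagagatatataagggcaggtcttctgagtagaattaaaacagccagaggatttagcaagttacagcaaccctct
Obox2, chr7:15388601-15388900 (plus strand): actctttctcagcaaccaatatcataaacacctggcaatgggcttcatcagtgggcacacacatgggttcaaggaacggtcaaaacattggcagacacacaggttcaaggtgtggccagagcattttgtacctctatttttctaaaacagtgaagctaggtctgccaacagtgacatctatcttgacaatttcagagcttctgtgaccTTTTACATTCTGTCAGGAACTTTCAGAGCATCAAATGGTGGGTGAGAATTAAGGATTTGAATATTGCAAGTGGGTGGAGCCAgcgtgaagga
Obox5, chr7:15750120-15750419 (plus strand): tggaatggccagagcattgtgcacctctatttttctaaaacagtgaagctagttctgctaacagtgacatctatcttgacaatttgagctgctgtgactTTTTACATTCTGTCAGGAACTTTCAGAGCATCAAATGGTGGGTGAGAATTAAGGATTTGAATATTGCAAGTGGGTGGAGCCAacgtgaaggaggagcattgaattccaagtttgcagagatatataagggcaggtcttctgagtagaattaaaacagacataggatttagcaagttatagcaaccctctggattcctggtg
Obox3, chr7:15639728-15640027 (minus strand): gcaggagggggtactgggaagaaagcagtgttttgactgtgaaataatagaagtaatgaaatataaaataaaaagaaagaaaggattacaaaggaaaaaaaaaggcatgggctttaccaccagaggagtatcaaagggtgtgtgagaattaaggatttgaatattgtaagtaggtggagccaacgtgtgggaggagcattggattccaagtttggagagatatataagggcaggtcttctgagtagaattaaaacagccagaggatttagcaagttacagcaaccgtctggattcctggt

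The common run is 82 bases long and was found on either strand in 3 of 32851 promoter windows (0.00913%), those of Obox1, Obox2 and Obox5. It was defined as the run these 3 windows share, so its presence in them was fixed beforehand. Where the windows of Obox1 and Obox2 overlap in alignment, all 203 bases were identical, and Obox1 and Obox5 were identical at 95.5% of 288 aligned bases. Obox3 and Obox1 were identical at 81.5% of 270. The window of Obox7, not printed, lacks the exact run but was identical to that of Obox5 at 97.8% of 274 aligned bases. The near match is therefore not particular to the abundant members. The letters TAATCC, a motif of bicoid-class homeodomains, were found on either strand in 7.06% of all windows. The letters TATAAA, a form of the TATA box, were found in 13.6%, and among the Obox windows each motif occurred in that of Obox3 alone. Only these exact letters were counted. The similar letters tatataag stand in the printed windows of Obox1, Obox3 and Obox5 and were not searched for. The letters TAATTG, a motif bound by Nobox, occurred in 8.00% of all windows and in none of these 5. TAATCC and TAATTG share their first letters and were counted separately, and a match or its absence describes this window only.

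With the FPKM table, 3 genes of 14292 tested (0.021%) passed an adjusted p of 0.1 between P and NP in limma, all of them higher in NP, and 0 of the 4 tested Obox members did. At an unadjusted p under 0.05 limma gave 0 members, where 9.95% of all genes were below that value, 9.47% higher in NP and 0.476% higher in P. Every NP library was above every P library for 5.92% of all genes and the reverse held for 0.357%, whereas the P and NP values overlapped for each of the 4 members and for Gm4745. The median log2 fold change over all tested genes was -0.39, towards NP, and each member's value is also given relative to it.

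Obox2, the member whose reference homeobox lacks a base, was the most abundant. Its FPKM was 540, 219, 591 and 367 in NP replicates 1 to 4, and 560, 288, 654 and 298 in P replicates 1 to 4. The libraries of both datasets thus covered nearly the same range, with replicates 1 and 3 above replicates 2 and 4 in each. The mean was 429 ± 170 (SD, n = 4) in NP and 450 ± 185 in P, and the log2 fold change of P over NP was 0.07 (SE 0.55, 95% confidence interval -1.12 to 1.26, limma adjusted p = 0.959). Relative to the median gene it was 0.46 higher, above 74.0% of all tested genes.

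Obox1, the closest relative of Obox2 and one of the first described family members, reached 349, 243, 450 and 291 FPKM in NP replicates 1 to 4. In P it measured 727, 249, 306 and 113. The highest and the lowest of the 8 values were both P libraries, replicates 1 and 4, and the NP libraries lay between them. Means were 333 ± 89.4 in NP and 349 ± 265 in P (SD, n = 4), and the log2 fold change was -0.20 (SE 0.61, interval -1.51 to 1.10, limma adjusted p = 0.892). This was 0.19 above the median gene.

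Obox5, a further maternally expressed member, had 233, 204, 312 and 199 FPKM in NP and 525, 398, 325 and 46.9 in P. Replicates 1, 2 and 3 of P stood above all 4 NP libraries and replicate 4 of P stood below them. The mean was 237 ± 52.0 in NP and 324 ± 202 in P (SD, n = 4), with a log2 fold change of 0.03 (SE 0.71, interval -1.49 to 1.55, limma adjusted p = 0.987). It lay 0.42 above the median gene. Without P replicate 4 the log2 fold change was 0.80 and still did not pass the test.

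Obox3, a member better known from the embryo after fertilisation, was far scarcer. Its FPKM was 4.47, 2.37, 6.99 and 8.27 in NP and 15.2, 1.44, 3.55 and 0.288 in P. The P values spanned a 52.7-fold range that enclosed the NP values. FPKM values rise in steps of 1 counted read or fragment, and the lowest value corresponds to 2 such steps, against 185 in P replicate 1. The mean was 5.52 ± 2.63 in NP and 5.11 ± 6.84 in P (SD, n = 4), and the log2 fold change was -0.64 (SE 0.96, interval -2.69 to 1.41, limma adjusted p = 0.780), which is -0.25 relative to the median gene.

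Obox6, a distant member known from the preimplantation embryo, was listed at 0 in all 8 libraries and was not tested. With an annotated transcript of 1344 bases, 3 steps would correspond to 0.294 to 1.72 FPKM depending on the library, so a level below this could have gone unseen at this depth. The limit covers counting error only.

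Gm4745, the older symbol of Obox7, measured 51.1, 23.2, 79.7 and 5.00 FPKM in NP and 58.6, 74.8, 7.48 and 2.96 in P. Replicate 4 was lowest in both datasets, and the datasets overlapped over nearly their whole range. The mean was 39.7 ± 32.7 in NP and 36 ± 36.2 in P (SD, n = 4), with a log2 fold change of -0.50 (SE 1.05, interval -2.76 to 1.76, limma adjusted p = 0.843).

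**Figure D2:**
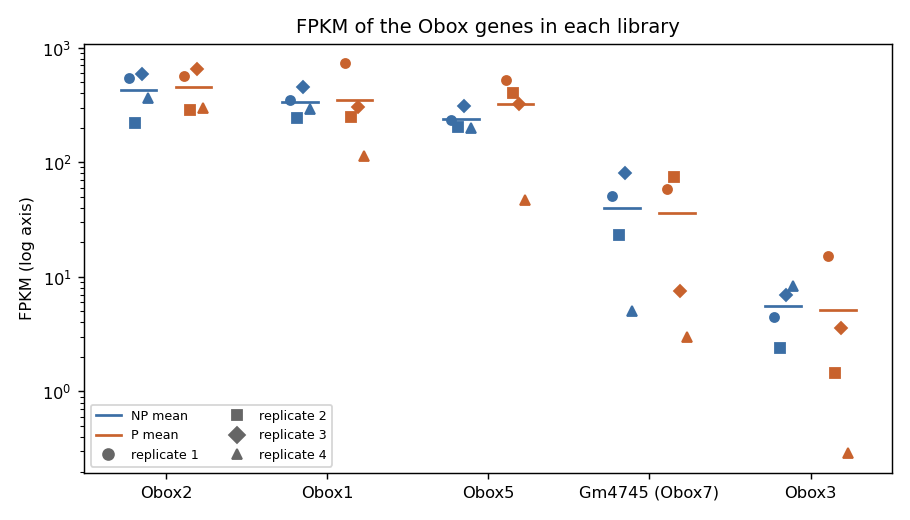
Each point is the FPKM of a gene in 1 library on a log axis, blue for NP and orange for P, with marker shape giving the replicate number and a line at the mean of 4 libraries; Gm4745 is the older symbol of Obox7. NP and P overlap for all 5 genes, and P replicate 4 (triangle) is the lowest P library for Obox1, Obox5, Gm4745 and Obox3.

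The order of the levels was Obox2, Obox1, Obox5, Gm4745 and Obox3, compared per kilobase. Over the 8 libraries the mean FPKM was 439 ± 165 for Obox2, 341 ± 183 for Obox1 and 280 ± 144 for Obox5 (SD, n = 8). These SDs give the spread between libraries and not that of a difference within a library, which was not tested. Obox2 exceeded Obox1 in 6 of 8 libraries, Obox1 exceeded Obox5 in 6 of 8 and Obox2 exceeded Obox5 in 7 of 8. A clear gap followed, because Obox5 exceeded Gm4745 (37.9 ± 32.0) in 8 of 8 libraries, while Gm4745 exceeded Obox3 (5.32 ± 4.80) in 7 of 8. Ranked among all genes of a library, Obox2 held places 68 to 525, Obox1 114 to 952, Obox5 142 to 1871 and Obox3 4137 to 8484.

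Spread differed between the datasets for part of the family. The coefficient of variation of Obox5 was 21.9% in NP and 62.5% in P, and that of Obox1 was 26.8% and 76%. For Obox2 it was 39.6% and 41.2%. The difference in spread was not tested. Depth differed among the libraries as well: the library size behind the FPKM, recovered from these steps, lay at 1299378 to 7594640 for NP libraries and at 2677947 to 4699328 for P libraries, and 11703 to 13753 genes were above 0 in NP against 9139 to 11339 in P. Its part in the spread was not tested.

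Since reads can pass between Obox1 and Obox2, the members were also summed. The sum was 1127, 667, 1359 and 865 FPKM in NP replicates 1 to 4 and 1827, 935, 1288 and 458 in P replicates 1 to 4, or between 0.0719% and 0.330% of a library's FPKM. P replicate 1 was the highest library and P replicate 4 the lowest, with NP between. The difference of the mean log2 sums was 0.05 (exact permutation test, 2-sided, n = 4 and 4, p = 0.914), and 0.0286 is the smallest p the design allows. When each library was instead centred on its median gene, the difference became 1.01 with every P library above every NP library (exact permutation test, n = 4 and 4, p = 0.0286), and under this scaling the median fold change over all genes itself moved from -0.39 to 0.57. With libraries scaled to equal FPKM totals, a setting added after the data had been seen, the difference was 0.14 (exact permutation test, p = 0.83). Among the scalings tried for the sum, only median centring thus set P apart from NP. That scaling shifts all genes of a library alike. The share of all genes with every P library above every NP library was not counted after median centring. Whether the separation is particular to the Obox genes was therefore not tested.

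**Figure D3:**
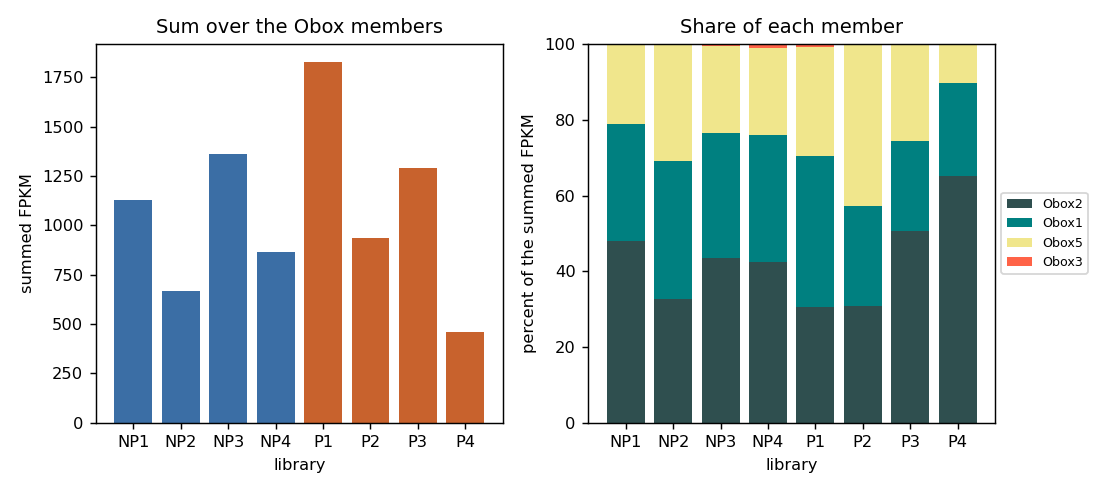
Left, bars give the summed FPKM of Obox1, Obox2, Obox3 and Obox5 in each of the 4 NP (blue) and 4 P (orange) libraries, without error since each bar is 1 library; right, stacked bars give each member's percent of that sum. The sum runs from 458 in P replicate 4 to 1827 in P replicate 1, and Obox3 is at most 0.956% of it.

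The make-up of the sum varied between libraries. Obox2 gave 30.6% to 65.0% of it, Obox1 23.8% to 39.8%, Obox5 10.2% to 42.5% and Obox3 0.0628% to 0.956%. The ratio of Obox5 to Obox1, which needs no scaling between libraries, was 0.669, 0.841, 0.692 and 0.685 in NP and 0.722, 1.60, 1.06 and 0.415 in P. The NP ratios lay close together, whereas P held both the highest and the lowest ratio. On the log2 scale P minus NP was 0.24 for Obox5 to Obox1, -0.28 for Obox1 to Obox2 and -0.04 for Obox5 to Obox2, with exact permutation p = 0.600, 0.571 and 0.886 and an adjusted p of 0.886 for each over these 3 ratios.

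**Figure D4:**
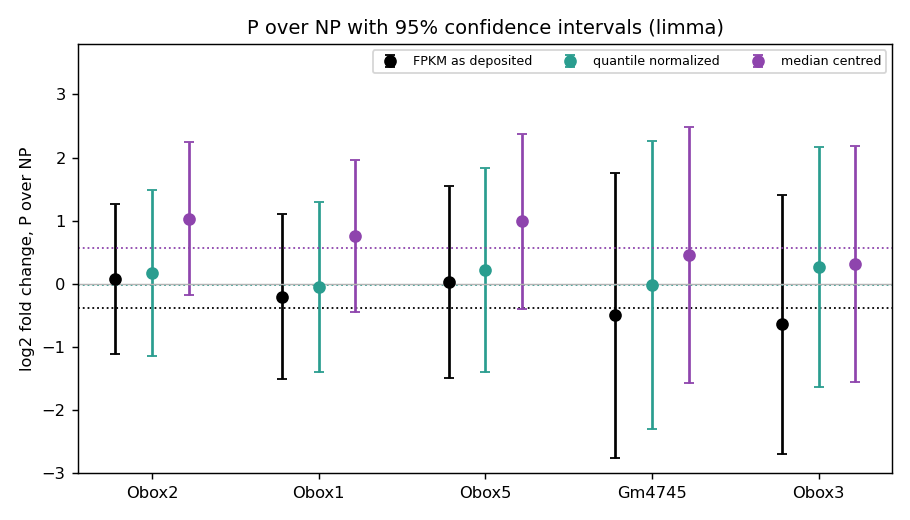
Points give the log2 fold change of P over NP for each gene with its 95% confidence interval from limma (n = 4 per dataset), for FPKM as deposited (black), quantile normalised (green) and median centred (purple); dotted lines mark the median of all genes under each scaling. All intervals contain 0, and Obox1, Obox3 and Gm4745 change sign between the deposited (-0.20, -0.64 and -0.50) and the median centred values (0.75, 0.32 and 0.46).

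For other homeodomain genes, 58 of 60 listed symbols had a row and 38 were tested. None passed the adjusted p of 0.1 in limma, and at an unadjusted p under 0.05 there were 4 of 38 higher in NP and 0 higher in P, beside 9.47% and 0.476% of all tested genes. The median log2 fold change of the list was -0.28, against -0.39 over all genes. The 4 genes were Nobox, Pbx2, Adnp2 and Lhx2, the last pair named after their values were seen, and in each every NP library was above every P library, as in 5.92% of all tested genes.

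Nobox, an oocyte homeodomain factor needed for follicle growth, was the most abundant gene of this list. It measured 406, 591, 308 and 560 FPKM in NP and 109, 63.2, 46.6 and 241 in P. All NP libraries were above all P libraries, and the log2 fold change was -2.25 (SE 0.60, limma unadjusted p = 0.00226, adjusted p = 0.376). Pbx2, a TALE-class cofactor of Hox proteins, had 75.1 ± 28.0 FPKM in NP and 23.9 ± 8.39 in P (SD, n = 4; limma adjusted p = 0.420). Sebox, a maternal homeodomain gene linked to early embryo development, had 257 ± 183 in NP and 109 ± 93.8 in P with overlapping libraries (limma adjusted p = 0.553). Pknox1, another TALE-class gene, lay at 2.0 to 35 in the NP libraries and at 0.408 to 659 in the P libraries, so that 1 library, P replicate 1, set its mean. Meis1, of the same class, stayed at or below 0.607 in every library, and Cphx1 (listed as Cphx), a homeobox gene of the preimplantation embryo, was above 0 in P replicate 1 alone.

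Set against these genes within each library, the summed Obox level was 2.78, 1.13, 4.42 and 1.55 times that of Nobox in NP and 16.8, 14.8, 27.6 and 1.90 times in P. In P replicates 1, 2 and 3 the ratio was above all NP libraries, and in P replicate 4 it fell among them. Between libraries of the same number it was higher in P each time. The labels do not state that these are pairs, and a paired difference was not tested. On the log2(FPKM + 1) scale the difference was 2.30 for Nobox, 1.61 for Sebox and -0.70 for Pknox1, with exact permutation p = 0.0857, 0.229 and 0.771 (adjusted over the 3 ratios, 0.257, 0.343 and 0.771). None passed 0.05, and these ratios were chosen after the data had been seen. Taken alone, P minus NP on this scale was 0.05 for the sum, -2.25 for Nobox, -1.56 for Sebox and 0.75 for Pknox1. The differences in ratio thus came mostly from the other genes and not from the sum.

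**Figure D5:**
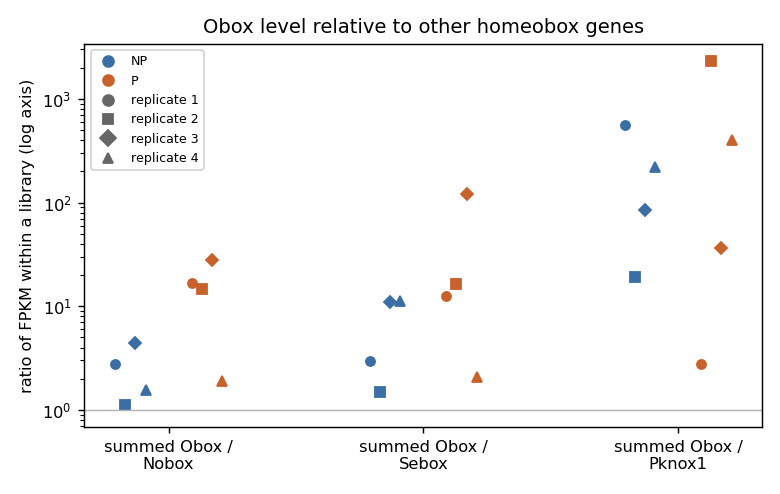
Each point is the summed Obox FPKM divided by the FPKM of Nobox, Sebox or Pknox1 in 1 library, on a log axis, blue for NP and orange for P, with marker shape giving the replicate number. For Nobox, P replicates 1, 2 and 3 (14.8 to 27.6) lie above the NP libraries (1.13 to 4.42) and P replicate 4 (1.90) lies among them.

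Among factors linked to activation of the embryonic genome, 33 of 34 listed symbols had a row and 30 were tested. None passed the adjusted p of 0.1 in limma, and the median log2 fold change of the list was -0.16. Npm2, a chromatin chaperone of the egg, had 488 ± 220 FPKM in NP and 1370 ± 2165 in P (SD, n = 4), the latter including 4606 in P replicate 4, the library where the Obox sum was lowest. Zar1, which binds stored maternal mRNA, had 465 ± 261 and 1068 ± 534, and Dppa3, which protects maternal methylation, had 372 ± 216 and 891 ± 677, all with overlapping libraries. Zscan4d, a gene of the 2-cell embryo, spanned 0.109 to 21.6 across NP and 0.154 to 1.54 across P, and Klf4, a pluripotency factor, was above 0 in 1 NP and 2 P libraries.

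The libraries carried the markers of oocytes: all 16 listed oocyte markers were tested, and their summed FPKM was 8967 to 18092 in NP and 10659 to 42172 in P. Gdf9, a growth factor secreted by the oocyte, had 1923 ± 832 and 5879 ± 4635, and Zp3, a zona pellucida protein, had 1617 ± 1035 and 3492 ± 3239 (SD, n = 4). None of these markers passed the adjusted p of 0.1 in limma, and at an unadjusted p under 0.05 there was 1 of 16, Figla, higher in NP, where 9.47% of all tested genes were. Markers of granulosa and cumulus cells summed to 14.3 to 136 in NP and 24.1 to 74.9 in P, 7 of 23 were at 0 in all libraries, Foxl2 among them, and of 13 tested none was below an unadjusted p of 0.05. The highest of them were Cyp19a1, the aromatase (30.0 ± 32.5 and 19.7 ± 29.4), and Vim, vimentin (5.31 ± 4.38 and 21.5 ± 22.9). Their part in the Obox values was not tested.

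The genes whose log2(FPKM + 1) followed the summed Obox level most closely over the 8 libraries, among 10618 genes with a mean above 1, were Narg2 (Pearson r = 0.97), Parp1 (0.96), Gm9762 (0.96), 4921524J17Rik (0.94) and Fbxl5 (0.94). These points share library, depth and the P or NP pool, and the values are a description. Gm4745 itself had r = 0.61 with the sum, a value that 1044 genes exceeded.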

How the data were processed

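RNA from pooled P and NP gradient fractions was depleted of rRNA, reverse transcribed with oligo(dT) and random primers, amplified as a whole transcriptome and sequenced as paired ends of 150 bases. According to the submitters' processing notes the authors used Trim Galore 0.4.1, FastQC 0.11.5 and HISAT2 2.0.5 with GRCm38, and the deposited FPKM values come from SeqMonk. Amplification before sequencing can add spread between libraries, and no molecular identifiers were used. Tables of the authors' DESeq2 comparison and of their expressed genes were not used.

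The members and gene lists were chosen with earlier results of these data known. Genes were matched by symbol, or by an older symbol through RefSeq. P was compared with NP by limma 3.58.1 (R 4.3.3), using lmFit and a trended eBayes, after conversion to log2(FPKM + 1). A gene entered when its mean exceeded 0.1 FPKM in either dataset, and p-values were adjusted after Benjamini and Hochberg over all tested genes, at a threshold of 0.1. Fold changes on this scale understate the change of low genes. Sums and ratios were compared by an exact permutation test over all 70 assignments (2-sided). On simulated data the fit was tested first. Low FPKM values, multiplied by annotated length, lay near whole multiples of a step, which gave each library's size. Of the genes above 0 with an annotated length, 80.9% to 82.5% per library came within about 0.01 of a whole number. The steps of the members were found with a tolerance of 0.02. The sources do not say if such a unit stands for 1 read or 1 read pair. Named genes were the members, the 3 most abundant genes and the 2 with the lowest p in each direction of the homeobox and early embryo lists, the 2 most abundant markers of each cell type and the 5 genes most like the summed Obox level; 1 gene that this rule names is not reported here. Sequences came from GENCODE M21 and RefSeq (GRCm38.p6). Alternatives varied the pseudocount, filter, scaling, trend, replicate block, summed members and the libraries included.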

Additional observations from a re-analysis of the deposited data

Results flagged for a closer look

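In 3 of the 56 groups of 4 libraries examined, a library stood farther from the rest than Dixon's 95% limit allows. For normally distributed values, chance alone flags about 1 in 20 groups. Where all other libraries were at 0, as for Cphx1 and Klf4 below, a single value above 0 is always flagged. That rate does not apply there. The log2 ratio of Obox5 to Obox1 was -0.25 in NP replicate 2, where the other NP libraries lay between -0.58 and -0.53. Cphx1 was 2.50 on the log2(FPKM + 1) scale in P replicate 1 and 0 in the other P libraries. Klf4 was 0.0636 on this scale in NP replicate 3 and 0 in the other NP libraries.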

How the results depend on the processing

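No Obox member passed the threshold in any of the 15 alternatives, nor did any gene of the homeobox, early embryo, oocyte or granulosa lists. The number of genes called over the whole table was 3 and became 5 with a pseudocount of 0.1, 5 with a mean FPKM above 1, 20 without the variance trend, 0 without a filter, 0 median centred, 0 quantile normalised, 1 with a replicate block and 0 to 5 with a library left out. Same-numbered libraries deviated from their dataset means with correlations of 0.14, 0.05, 0.25 and 0.15. Between libraries of different number the values ran from -0.14 to 0.14. Each P library was closest to the NP library of its own number. NP replicate 2, however, was closer to P replicate 1 (0.14) than to P replicate 2 (0.05). These values do not settle whether the numbers pair the samples, and the main tests were unpaired. The replicate block changed no member's call. Median centring turned the log2 fold change of Obox1 to 0.75, Obox3 to 0.32 and Gm4745 to 0.46 and raised that of the sum to 1.01 (exact permutation test, n = 4 and 4, p = 0.0286), and quantile normalisation turned Obox3 to 0.26. Without Obox2 the sum gave -0.067. With each library left out in turn, the range was -0.66 to 0.23 for Obox1, -0.22 to 0.26 for Obox2, -1.32 to -0.11 for Obox3, -0.35 to 0.80 for Obox5, -1.24 to 0.27 for Gm4745 and -0.24 to 0.42 for the sum. For the ratios it was -0.60 to -0.0075 for Obox1 to Obox2, -0.47 to 0.57 for Obox5 to Obox2, -0.069 to 0.57 for Obox5 to Obox1, 1.85 to 3.12 for the sum to Nobox, 0.64 to 2.55 to Sebox and -1.84 to 0.79 to Pknox1. With a library left out the smallest exact p is 0.0571, so these ranges say nothing of the threshold for the sum and ratios. Median centring shifts all genes of a library alike. Relative to the median gene the members thus stayed at 0.19 (Obox1), 0.46 (Obox2), -0.25 (Obox3) and 0.42 (Obox5). After quantile normalisation these positions were -0.04 (Obox1), 0.19 (Obox2), 0.28 (Obox3) and 0.24 (Obox5). The cause of the other shifts, and of the difference between library medians, was not tested. Analyses of Gm4745, of the ratios, and of the sum with Gm4745 or scaled to equal totals were added after the data had been seen. The narrowest 95% interval of a member's fold change ran from -1.12 to 1.26 (Obox2), which limits what these libraries can show.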
